A study of Mus musculus with 15 samples.

Results

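The genes followed here, 10 that mark dendritic cells or are made by them, were read in RNA of mouse alveolar macrophages. They were the chemokine genes Ccl17 and Ccl22, the chemokine receptor genes Ccr7 and Xcr1, the growth factor receptor gene Flt3, the lectin genes Clec9a and Cd209a, and the transcription factor genes Zbtb46, Irf4 and Batf3. They were chosen by symbol, and each had 1 entry among the 40510 genes of the count table. All 10 were among the 13284 genes that passed the filter on low counts. The cells came from untreated (naive) C57BL/6 mice, wild-type or without Cybb (CybbKO, also labelled CGD after chronic granulomatous disease), the gene of the catalytic subunit NOX2 of the phagocyte NADPH oxidase. Lavage of the airways gave the cells, and the sort kept those with CD45, SiglecF and CD11c but not Ly6G. A further gate set CD11b-low apart from CD11b-high cells by surface CD11b, which Itgam encodes.

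There were 5 groups of 3 libraries. CD11b-low cells came from both genotypes at 4 and at 12 weeks of age, and the fifth group was the CD11b-high gate of 12-week knockout animals. Each library pooled 2 to 3 mice and about 50000 cells. A CD11b-high wild-type group was not analysed here, so CD11b-high cells differ from wild-type cells in both genotype and gate, which cannot be told apart. The labels do not say which part of Cybb was removed, and no cell type restriction of the knockout is given. Libraries held 22856331 to 36458893 counts. Levels are CPM, counts scaled to the TMM-adjusted library size, as mean ± SD over n = 3 libraries, and the 3 values of a group are given in the order of replicates 1, 2 and 3. Changes were tested with edgeR's quasi-likelihood test, two-sided, with Benjamini-Hochberg adjustment over the 13284 genes and a threshold of 0.05.

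Dendritic cells take up antigen in tissue and carry it to lymph nodes, a journey guided by CCR7. Conventional dendritic cells depend on the receptor FLT3 and express the factor ZBTB46. The cDC1 subset depends on BATF3 and carries XCR1 and CLEC9A, whereas IRF4 serves the cDC2 subset and CD209A is found on monocyte-derived and some other dendritic cells. CCL17 and CCL22 draw T cells that carry the receptor CCR4, and are made by dendritic cells and by macrophages exposed to IL-4 or GM-CSF through STAT6 and STAT5.

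Alveolar macrophage markers were present in all libraries. The summed level of 13 of them was 34813 to 70631 CPM over the 15 libraries, and none of the 13 was at 0. Siglecf and Itgax among them encode the sort markers SiglecF and CD11c, so the gate selected for these. Chil3 alone gave most of the mean sum in 12-week CD11b-low cells. The defining dendritic cell genes were close to absent: Zbtb46 stood at 0.275 to 3.05 CPM, and Flt3 at 0 to 1.77 CPM with no count in 5 of 15 libraries. In such bulk samples, more cells of a type and more RNA per cell cannot be told apart. Cybb at 4 weeks was at 1795 ± 454 CPM with the gene intact and 204 ± 18.6 CPM in the knockout (log2 -3.14, SE 0.25, adjusted p = 6.6e-06). At 12 weeks it was at 163 ± 26.4 CPM in CD11b-low knockout, 149 ± 22.5 CPM in CD11b-high knockout and 1026 ± 172 CPM in wild-type cells (CD11b-low knockout against wild-type log2 -2.65, SE 0.25, adjusted p = 2.1e-05). Replicate 1 of the 12-week wild-type group stood apart from its group, with a chi-square per degree of freedom over genes of 372 and 416 against the others and 68.9 between those others.

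Ccl17 and Ccl22 lie in 1 cluster on chromosome 8. On GRCm38 (GENCODE M21), Ccl22 (ENSMUSG00000031779) spans chr8:94745590-94751699 and Ccl17 (ENSMUSG00000031780) spans chr8:94810453-94812036, both on the plus strand with starts 64863 bases apart. The sequences before both starts are shown because the genes neighbour each other and both are leading members here. They are from RefSeq on GRCm38.p6 (Ccl17 chr8:94810203-94810452, Ccl22 chr8:94745434-94745589), read 5′ to 3′ on the plus strand, and end at the base before the start. Capitals mark matches to STAT-type patterns.
Ccl17: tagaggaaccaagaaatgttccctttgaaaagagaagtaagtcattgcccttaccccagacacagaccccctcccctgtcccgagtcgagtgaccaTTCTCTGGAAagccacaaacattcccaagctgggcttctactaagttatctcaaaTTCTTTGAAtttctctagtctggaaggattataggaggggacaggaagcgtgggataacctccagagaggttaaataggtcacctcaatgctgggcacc
Ccl22: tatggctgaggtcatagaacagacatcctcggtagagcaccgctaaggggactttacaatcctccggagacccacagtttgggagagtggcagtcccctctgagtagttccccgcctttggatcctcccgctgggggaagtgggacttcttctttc
The Ccl17 stretch held 1 match to TTCNNNNGAA, the STAT6-type pattern, at bases -154 to -145 from the start, and 1 to TTCNNNGAA, the general STAT-type pattern, at bases -99 to -91. The shorter Ccl22 stretch of 156 bases held neither. On both strands, 5.85% of 32851 promoters of 250 bases held TTCNNNNGAA and 7.02% held TTCNNNGAA. Of the 9 members with a promoter entry, Batf3 also held TTCNNNGAA, Zbtb46 held the AP-1-type pattern TGANTCA (6.75% of promoters), and none held the ETS-IRF-type pattern GGAANNGAAA (2.3%) or the kappaB pattern (7.25%). These matches describe letters only.

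**Figure D1:**
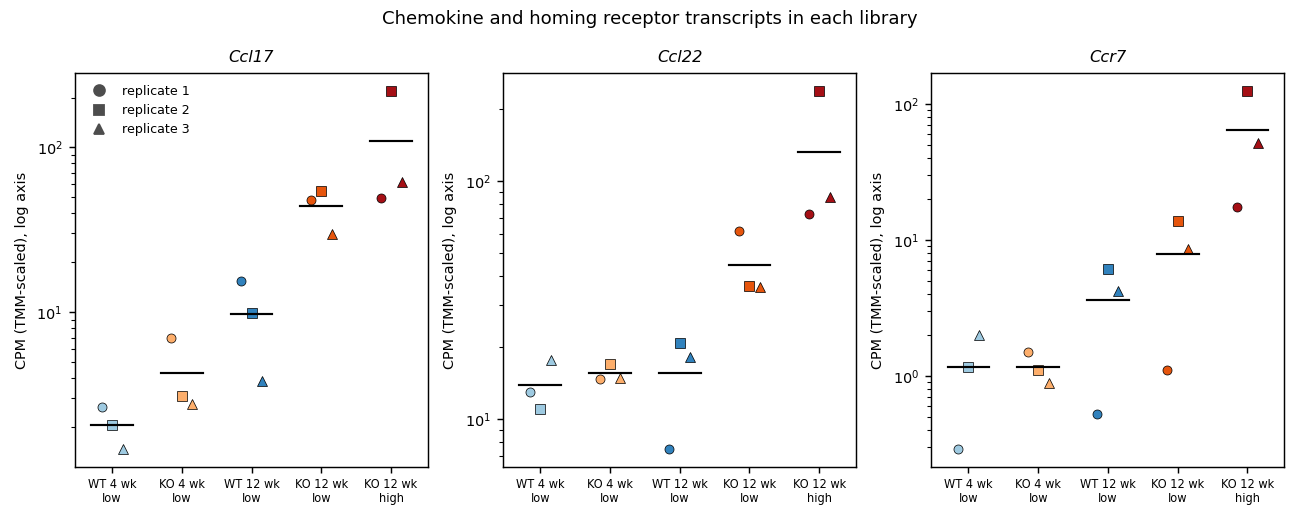
TMM-scaled CPM (log axis) of Ccl17, Ccl22 and Ccr7 in each of the 15 libraries by group, with points for replicates and bars for group means. Ccl17 ranges from 1.48 CPM in wild-type cells at 4 weeks to 219 CPM in CD11b-high knockout cells at 12 weeks.

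Ccl17, a ligand of CCR4, varied 148-fold over the libraries and Ccl22 31.9-fold. At 4 weeks its levels were 2.64, 2.06 and 1.48 CPM in wild-type and 6.92, 3.10 and 2.77 CPM in knockout cells. At 12 weeks they were 15.4, 9.90 and 3.79 CPM in wild-type, 47.9, 54.1 and 29.8 CPM in CD11b-low knockout and 49.2, 219 and 61.2 CPM in CD11b-high knockout cells. Each group's mean was above that of the group before it in the order just given. Libraries of knockout cells at 4 weeks and wild-type cells at 12 weeks overlapped, as did those of CD11b-low and CD11b-high knockout cells, and the other neighbours in this order did not.

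Ccl22 encodes the other CCR4 ligand of the cluster. Its levels were 13.0, 11.0 and 17.7 CPM in wild-type and 14.7, 17.1 and 14.9 CPM in knockout cells at 4 weeks, and 7.49, 20.9 and 18.2 CPM in wild-type cells at 12 weeks. In 12-week knockout cells they were 61.4, 36.2 and 35.7 CPM (CD11b-low) and 72.8, 239 and 85.9 CPM (CD11b-high). The first 3 groups overlapped, CD11b-low knockout cells lay above them, and CD11b-high cells lay above those. Replicate 1 of the 12-week wild-type group had the lowest Ccl22 and the highest Ccl17 of its group.

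Ccr7, the receptor that leads dendritic cells and T cells to lymph nodes, was at 0.291, 1.17 and 2.00 CPM in wild-type and 1.50, 1.10 and 0.885 CPM in knockout cells at 4 weeks. At 12 weeks it was at 0.523, 6.08 and 4.20 CPM in wild-type, 1.10, 13.8 and 8.61 CPM in CD11b-low knockout and 17.5, 124 and 51.1 CPM in CD11b-high knockout cells. The 4 CD11b-low groups overlapped as neighbours, and the 3 CD11b-high libraries were above every other library. In the 12-week groups of each kind, replicate 1 was the lowest.

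Cd209a, a C-type lectin gene of the DC-SIGN family, had 0 to 6 counts a library at 4 weeks, with 2 counts in the 3 wild-type and 7 in the 3 knockout libraries together. At 12 weeks it was at 1.05, 0.668 and 0.137 CPM in wild-type, 0.366, 0.954 and 2.97 CPM in CD11b-low knockout and 3.30, 25.9 and 10.9 CPM in CD11b-high knockout cells. The CD11b-high libraries were above all others, and the CD11b-low groups of both genotypes overlapped at both ages. Clec9a, the lectin by which cDC1 sense dead cells, had group means of 0.557 ± 0.349 CPM (wild-type) and 0.315 ± 0.222 CPM (knockout) at 4 weeks, and 1.04 ± 0.472 CPM (wild-type), 1.12 ± 0.307 CPM (CD11b-low knockout) and 3.33 ± 0.706 CPM (CD11b-high knockout) at 12 weeks. Its CD11b-high libraries at 4.08, 2.67 and 3.25 CPM lay above every other library, the highest of which was at 1.49 CPM.

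Flt3 had 3, 0 and 19 counts in wild-type and 0, 0 and 1 counts in knockout libraries at 4 weeks. At 12 weeks it had 9, 0 and 0 counts in wild-type, 3, 10 and 11 in CD11b-low knockout and 14, 32 and 57 in CD11b-high knockout libraries, the last group at 0.571, 1.50 and 1.77 CPM. CD11b-high cells lay above CD11b-low cells of their own genotype but not above replicate 3 of the 4-week wild-type group at 0.574 CPM. Flt3 would not have passed the filter on low counts without the CD11b-high libraries. Zbtb46, the factor shared by conventional dendritic cells, ranged from 0.644 ± 0.0839 CPM in knockout cells at 4 weeks to 1.89 ± 1.0 CPM in CD11b-high cells, and neighbours in the order of its group means overlapped throughout. Xcr1, the cDC1 receptor for XCL1, ranged from 0.454 ± 0.374 CPM in knockout cells at 4 weeks to 1.67 ± 1.0 CPM in CD11b-low knockout cells at 12 weeks, again with overlap between all neighbours.

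Irf4, a factor of cDC2 and of alternatively activated macrophages, had means of 1.52 ± 1.31 CPM in wild-type cells at 12 weeks, 1.87 ± 0.621 CPM in wild-type cells at 4 weeks, 2.57 ± 0.248 CPM in knockout cells at 4 weeks, 3.17 ± 1.10 CPM in CD11b-low and 5.02 ± 2.96 CPM in CD11b-high knockout cells at 12 weeks. Batf3, the cDC1 factor, varied least of the 10, from 2.53 to 9.89 CPM over all libraries (3.90-fold). Its group means ran from 4.22 ± 1.10 CPM in knockout cells at 4 weeks to 7.51 ± 3.76 CPM in CD11b-high cells. Neighbouring groups overlapped in both genes.

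**Figure D2:**
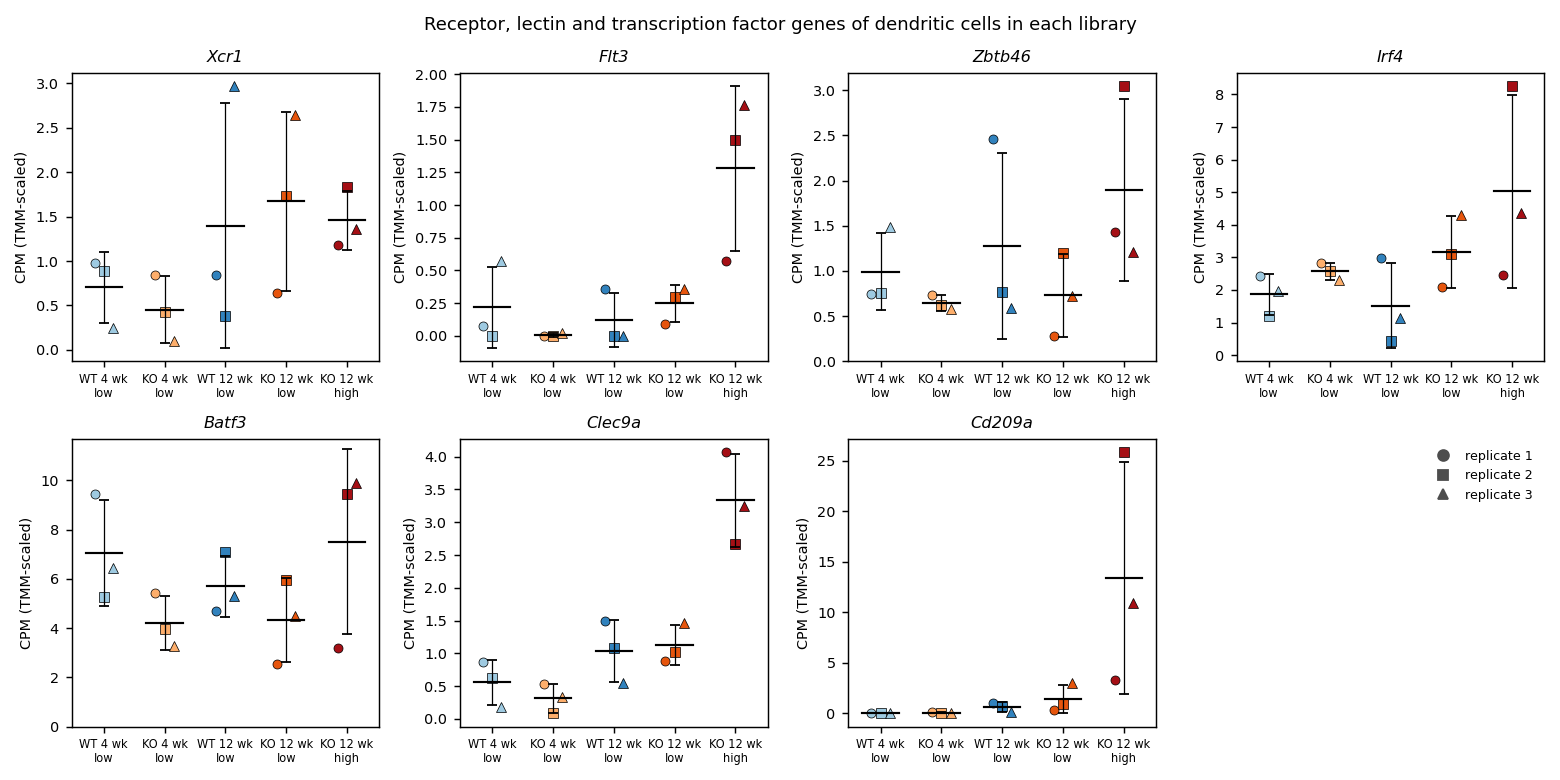
TMM-scaled CPM of the other 7 genes in each library by group, on linear axes from 0 that differ between panels, with bars for the mean ± SD (n = 3). Clec9a and Cd209a separate the CD11b-high group from all others, and for Xcr1, Zbtb46, Irf4 and Batf3 groups next to each other in the order of the means overlap.

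Per kb of exon, the scale on which genes can be compared, Ccl17 was the most abundant of the 10 in 4 of the 5 groups. It stood at 213 ± 184 CPM per kb in CD11b-high knockout, 85.4 ± 24.5 in CD11b-low knockout and 18.8 ± 11.3 in wild-type cells at 12 weeks. Ccl22 followed at 57.0 ± 39.7, 19.1 ± 6.34 and 6.67 ± 3.05 CPM per kb. In wild-type cells at 4 weeks the order was Ccl22 (5.97 ± 1.47), Batf3 (4.41 ± 1.35) and Ccl17 (4.01 ± 1.13 CPM per kb). Flt3 was last or next to last in every group, at 0.207 ± 0.102 CPM per kb in CD11b-high cells.

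In 12-week CD11b-low cells, Ccl17 was higher without Cybb. It rose 4.52-fold over wild-type cells (log2 2.18, SE 0.57, adjusted p = 0.0481), with all 3 knockout libraries above all 3 wild-type libraries. Ccl22 was 2.86-fold higher by the fit and also without overlap (log2 1.52, SE 0.42), but missed the threshold (adjusted p = 0.0592). Ccl17 was thus the 1 member of 10 called higher, where 2.60% of all genes were. Members without overlap were 2 of 10, against 9.82% of all genes. The median log2 difference of the 10 was 1.06, against -0.04 over all genes tested.

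The Ccl17 call stood close to the threshold. It was lost when any 1 of the 6 libraries was left out, and its adjusted p ran from 2.3e-10 to 0.137 over 13 alternatives, of which 5 kept it. Without wild-type replicate 1 the log2 difference was 2.67 for Ccl17 and 1.19 for Ccl22. The other 8 members gave log2 differences from -0.80 (Zbtb46) to 1.18 (Cd209a), and none was called. Ccr7 was at 7.85 ± 6.40 CPM without Cybb and 3.60 ± 2.83 CPM with it (log2 1.12, SE 0.91), with overlap. Irf4 differed by log2 1.07 (SE 0.55, adjusted p = 0.285).

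Of 23 tested genes of mature, migratory dendritic cells, 4 rose and 0 fell in this comparison, with a median of 0.78. The count was 2 without wild-type replicate 1 or 3, where Cd200 was among those lost, and 0 with voom. They included Serpinb6b, a serpin (6.74 ± 1.47 against 1.62 ± 0.692 CPM, adjusted p = 0.0042), Cd63, a tetraspanin (1081 ± 552 against 306 ± 45.6 CPM, adjusted p = 0.0104), and Cd200, an inhibitory ligand (97.7 ± 23.7 against 30.4 ± 18.1 CPM, adjusted p = 0.0145). Among 18 genes of the CCR4 ligand pathway and the cytokines that induce it, 2 rose: Il7r (log2 4.73, SE 0.50) and Il2rg (log2 1.22, SE 0.28), receptor chains that T cells also carry. The Il2rg call was lost without knockout or wild-type replicate 1 (log2 1.04 without the latter). Of 12 genes shared by conventional dendritic cells, Slamf7 rose (log2 4.58, SE 0.65; DESeq2 called 4), and of 11 cDC2 genes Tnip3 rose (log2 4.35, SE 0.49). None of 14 cDC1 genes passed edgeR's test, with 4 at an unadjusted p under 0.05, and DESeq2 called 1 higher and 1 lower and voom 0. Over all genes, 2724 of 13284 had an unadjusted p under 0.05 in edgeR in this comparison. None of 12 STAT6 target genes of macrophages passed by edgeR, DESeq2 or voom, with 2 at an unadjusted p under 0.05 in edgeR. None of 13 IRF and BATF family genes passed edgeR's test (5 at an unadjusted p under 0.05; DESeq2 1 higher and 1 lower, voom 0), nor did any of 9 plasmacytoid genes (1; DESeq2 1, voom 0). Of the STAT6 targets the most abundant, Chil3, was at 41158 ± 6101 against 35964 ± 11052 CPM, and Mrc1 at 502 ± 76.2 against 370 ± 69.0 CPM.

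Markers of other cells moved with the same comparison. The summed level of 12 T and NK cell markers was 47.8 to 126 CPM without Cybb against 3.20 to 7.10 CPM in the wild type, and 6 of 11 tested rose. The 5 eosinophil markers summed to 125 to 683 against 10.7 to 16.5 CPM, with 2 to 4 of them at 0 in a knockout library, and Ear6 rose. In the library at 683 CPM 4 of the 5 were at 0, so 1 gene gave that sum. The 7 neutrophil markers summed to 181 to 256 against 92.9 to 124 CPM, and S100a8 rose of 6 tested. The 6 B cell markers were at 2.14 to 14.5 against 0.564 to 1.59 CPM, and Blk rose of 5 tested. The 12 monocyte and interstitial macrophage markers overlapped, at 751 to 1021 against 511 to 909 CPM, and Ly6c2 rose. Lung epithelial markers were at 15.4 to 31.2 against 65.3 to 115 CPM, and Sftpc fell. The 5 red cell markers were at 68.6 to 146 against 571 to 1308 CPM, and 4 of them fell. Of the 13 alveolar macrophage markers, Ear1, Ear2 and Fabp1 fell. With 1 of the 6 libraries left out, Sftpc kept its call in 0 fits, Ly6c2 in 1, S100a8 in 2 and Blk in 3. The 4 red cell genes kept theirs in 3 to 5, and Ear1, Ear2, Fabp1 and Ear6 in all 6. The part of these markers in the result was not tested.

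**Figure D3:**
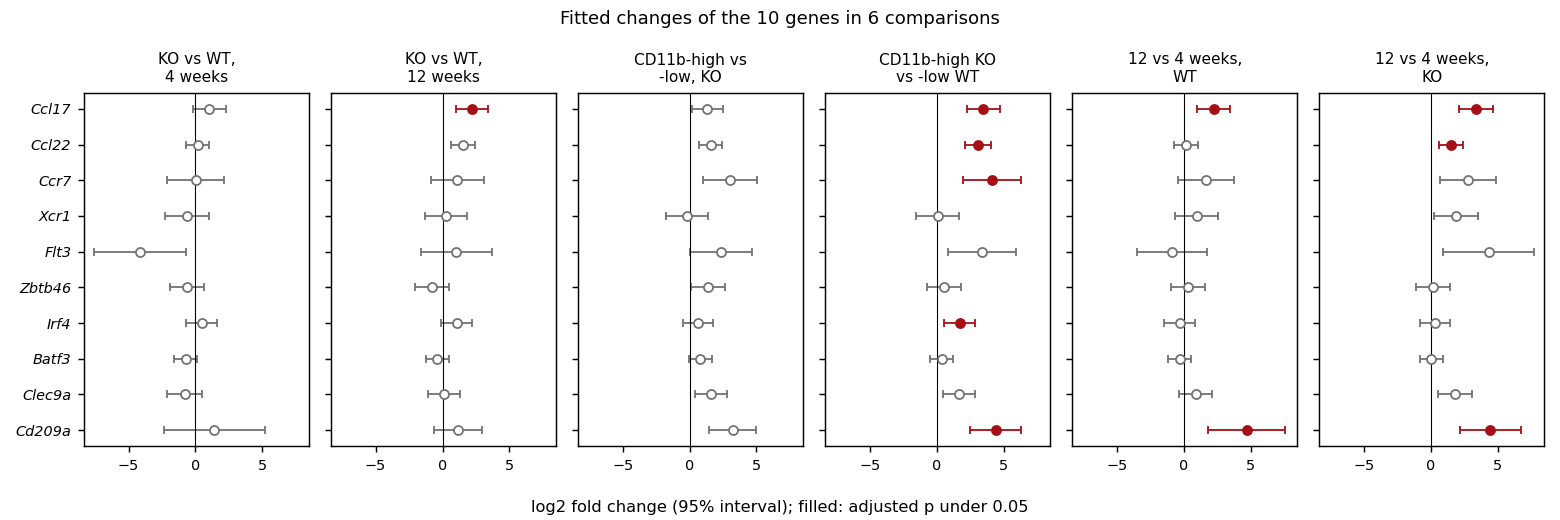
Log2 fold changes of the 10 genes with 95% intervals in 6 comparisons, filled where the adjusted p is under 0.05 in edgeR. Calls appear for Ccl17 in 4 comparisons, Cd209a in 3, Ccl22 in 2, and Ccr7 and Irf4 in 1 each.

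At 4 weeks no member passed the test between genotypes, where 0.0979% of all genes did in either direction. DESeq2 and voom also called 0 members. In edgeR 1 member (Flt3, at 1 count in knockout and 22 in wild-type libraries together) had an unadjusted p under 0.05, as did 199 of 13284 genes. Ccl17 was higher in knockout libraries without overlap, as were 3.91% of all genes, by log2 1.04 with a 95% interval of -0.18 to 2.27. Zbtb46 was lower without overlap, as were 4.72% of all genes, by log2 -0.62 with an interval of -1.90 to 0.66. For Ccl22 the difference was 0.16, with an interval of -0.71 to 1.04. Of the 9 lists of related genes none had a called member by edgeR, DESeq2 or voom, with 0 to 2 genes a list at an unadjusted p under 0.05 in edgeR. Red cell markers summed to 1650 to 7468 CPM in the wild type against 45.8 to 151 CPM, and 5 of 5 were lower without Cybb by the test. Their part was not tested.

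Ccl17 rose with age in both genotypes. From 4 to 12 weeks it rose 10.3-fold in knockout cells (log2 3.36, SE 0.60, adjusted p = 0.0037) and 4.69-fold in wild-type cells (log2 2.23, SE 0.59, adjusted p = 0.0170). Ccl22 rose 2.86-fold in knockout cells (log2 1.52, SE 0.42, adjusted p = 0.0393) and differed by log2 0.16 in wild-type cells (95% interval -0.71 to 1.04), or by 0.49 without replicate 1 at 12 weeks (adjusted p = 0.442). Cd209a was called in both genotypes from near 0 at 4 weeks: 7 counts in 3 knockout libraries became 135 (adjusted p = 0.0215), and 2 counts in 3 wild-type libraries became 50 (adjusted p = 0.0264).

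The counts were 3 of 10 members called higher in knockout cells, where 4.81% of all genes were, and 2 of 10 in wild-type cells, where 8.79% were. In knockout cells 5 members did not overlap between ages (19.0% of all genes) and in wild-type cells 2 (15.6% of all genes). DESeq2 and voom each called 6 members in knockout cells, and DESeq2 2 and voom 0 in wild-type cells. Over all genes in either direction, DESeq2 called 1679 and voom 2640 in knockout cells, where edgeR called 915. In wild-type cells these were 2915 and 3968, where edgeR called 2282. The Ccl17 call in knockout cells held in 13 of 13 alternatives. That of Ccl22 held in 8 of 13 and was lost without CD11b-low replicate 1 or 3 at 12 weeks or without any 1 library at 4 weeks, with an adjusted p up to 0.150. The wild-type Ccl17 call was lost without replicate 2 or 3 at 4 weeks or replicate 1 at 12 weeks (log2 1.74 without the last), with an adjusted p up to 0.135. The Cd209a call was lost in knockout cells without replicate 2 or 3 at 4 weeks or replicate 3 at 12 weeks, and in wild-type cells without any 1 library other than replicate 3 at 12 weeks.

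The change with age was not shown to differ between genotypes for any member. In the interaction of genotype and age, 0 of 10 members passed in edgeR, DESeq2 or voom, against 0.248% of all genes in edgeR. In edgeR 2 members had an unadjusted p under 0.05: Ccl22 (log2 1.35, SE 0.59, adjusted p = 0.547) and Flt3, which rests on the few counts above. How many of all genes did so was not counted. The value for Ccl17 was 1.13 with a 95% interval of -0.55 to 2.82. Without wild-type replicate 1 at 12 weeks it was 1.63 for Ccl17 (adjusted p = 0.730) and 1.02 for Ccl22 (adjusted p = 0.729). The comparisons share groups, so their values are set side by side only.

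Shared dendritic cell genes moved with age as well. In knockout cells 6 of 12 rose and 0 fell, with a median log2 change of 3.95 against -0.02 over all genes. H2-Aa and Cd74, of MHC class II presentation, went from 64.9 ± 19.8 to 1497 ± 354 CPM and from 642 ± 185 to 11053 ± 3902 CPM. In wild-type cells 3 of 12 rose and 0 fell, with H2-Aa at 69.3 ± 55.7 and then 1805 ± 348 CPM. Of 23 mature dendritic cell genes 8 rose and 0 fell in knockout cells (4 without replicate 2 or 3 at 4 weeks or replicate 3 at 12 weeks, and 5 without replicate 1 at either age), among them Ccl5, a chemokine also made by T cells (log2 3.41, SE 0.46), Cd63 (log2 3.38, SE 0.39) and Cd200 (log2 2.31, SE 0.37). In wild-type cells 4 rose, with Ccl5 (log2 2.57, SE 0.46) and Cd63 (log2 1.90, SE 0.37) among them (2 without any 1 library at 4 weeks or replicate 2 at 12 weeks), and Serpinb6b fell (log2 -1.83, SE 0.36). For Cd200 (interaction log2 3.06, SE 0.50, adjusted p = 0.0177) and Serpinb6b (interaction log2 2.60, SE 0.50, adjusted p = 0.0349) the change with age differed between genotypes. The Cd200 call was lost without knockout replicate 3 at 4 weeks, and that of Serpinb6b held in 3 of 12 fits with 1 library left out (without knockout replicate 2 at 4 weeks, or replicate 2 of either genotype's CD11b-low cells at 12 weeks). Of 14 cDC1 genes 5 rose and 0 fell in knockout cells, including Itgae (log2 4.39, SE 0.99) and Id2 (log2 1.21, SE 0.25), but 0 rose without replicate 3 at 4 weeks, 1 without replicate 1 or 2 of that age, and 3 without replicate 1 at 12 weeks.

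Markers of other cells moved with age too. In knockout cells T and NK cell markers summed to 1.64 to 2.95 CPM at 4 weeks and 47.8 to 126 CPM at 12 weeks, and 9 of 11 tested rose. Eosinophil markers went from 14.0 to 34.7 CPM to 125 to 683 CPM, with 2 to 4 of the 5 at 0 in a library (4 in that at 683 CPM), and Ear6 rose. Neutrophil markers went from 126 to 149 CPM to 181 to 256 CPM, with S100a8 and S100a9 higher. B cell markers went from 0.574 to 0.947 CPM to 2.14 to 14.5 CPM, with Cd79b and Blk higher. Of the monocyte and interstitial macrophage markers, at 776 to 913 CPM and then 751 to 1021 CPM, Ly6c2, C1qb and Itgam rose, and Fabp4 rose of the alveolar macrophage markers. In wild-type cells red cell markers went from 1650 to 7468 CPM to 571 to 1308 CPM, and 5 of 5 fell. Cd3d and Nkg7 of the T and NK cell markers rose, at sums of at most 3.81 CPM and then 3.20 to 7.10 CPM. Among the other marker lists Epcam, S100a8, Ear1, Ear2, Fabp4 and Fabp1 rose, and Cxcr2, Csf1r, Mertk and Mrc1 fell. With 1 of 6 libraries left out, Cd79b and C1qb kept the call in knockout cells in 1 fit, Itgam in 2 and Fabp4 in 3. In wild-type cells Nkg7 and Fabp1 kept it in 1 fit and Cd3d and Hbb-bs in 2. There S100a8, Csf1r, Mertk, Hbb-bt, Hba-a1 and Hba-a2 kept it in 3, Cxcr2 in 4 and Mrc1 in 5. For Cd3g, Lck and Ear6 the change with age differed between genotypes by the test. With 1 library left out, the call held in 10 of 12 fits for Cd3g, 4 of 12 for Lck and 6 of 12 for Ear6. The part of these markers of other cells in the result was not tested.

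Within the knockout at 12 weeks, Ccr7 and Cd209a were higher in every CD11b-high than in every CD11b-low library. Neither passed in the edgeR fit used for every comparison, which had no replicate block. The calls below come from an alternative fit with that block. Same-numbered libraries of these 2 groups deviated from their group means in the same direction on the whole, least so for replicate 3. With the replicate number as a block, Ccr7 rose 9.18-fold (log2 3.20, SE 0.65, adjusted p = 0.0308) and Cd209a 9.41-fold (log2 3.23, SE 0.68, adjusted p = 0.0387). These were 2 of 10 members called higher, against 0.640% of all genes in that paired fit. That fit was not repeated with single libraries left out. Without the block 0 of 10 passed, where 0.572% of all genes were called higher, and Cd209a (adjusted p = 0.0974), Ccl22 (0.107) and Ccr7 (0.206) came nearest. Without the block 7 members had an unadjusted p under 0.05, as did 1332 of 13284 genes. Also without it, DESeq2 and voom each called 1 member, Ccl22.

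In libraries of the same number, Ccr7 was 15.9, 8.96 and 5.93 times as high in CD11b-high as in CD11b-low cells for replicates 1, 2 and 3. Cd209a was 9.02, 27.2 and 3.67 times as high. Flt3 was 6.23, 5.03 and 4.92 times as high, though from 3, 10 and 11 counts in CD11b-low cells. Clec9a was 2.22 to 4.61 times and Zbtb46 1.68 to 5.20 times as high. The chemokine genes differed more between replicates: Ccl17 was 1.03, 4.05 and 2.05 times and Ccl22 1.19, 6.60 and 2.41 times as high. Xcr1 went both ways, at 1.85, 1.06 and 0.516 times. Of the 10 members, 9 were thus higher in all 3 pairs, with ratios down to 1.01 (Irf4) and 1.03 (Ccl17). The share of all genes higher in all 3 pairs was not counted. Members without overlap between the groups were 6 (Ccl22, Ccr7, Flt3, Zbtb46, Clec9a and Cd209a), against 7.91% of all genes. Flt3 passed the filter on low counts only with the CD11b-high libraries, so its separation here is not independent of that filter.

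**Figure D4:**
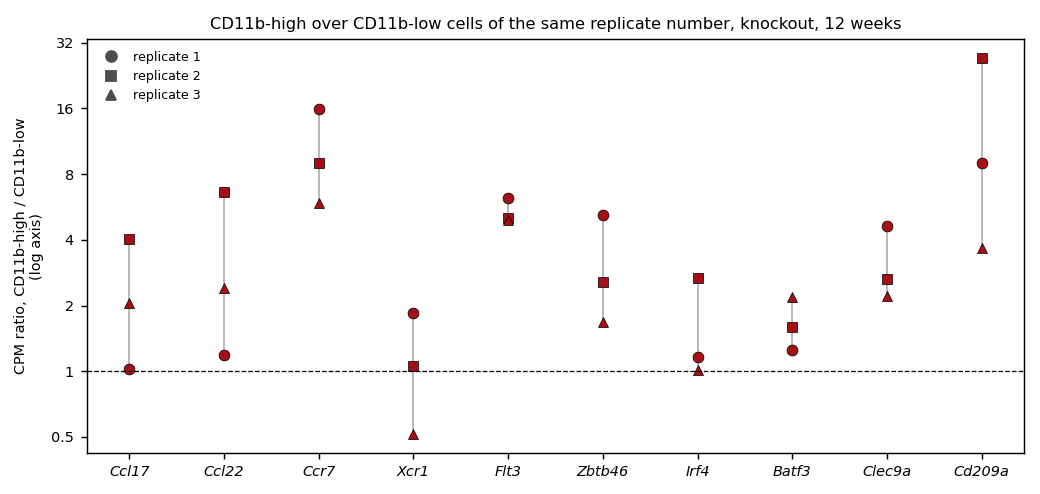
Ratio of CPM in CD11b-high to CD11b-low knockout cells at 12 weeks for each replicate number and gene, on a log axis, with a dashed line at 1. Ccr7 is 5.93 to 15.9 times as high in the 3 pairs, and Xcr1 is the 1 gene with a ratio under 1.

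CD11b-high replicate 2 had the highest Ccl17, Ccl22, Ccr7, Xcr1, Cd209a, Zbtb46 and Irf4 of its group. Without it and without the block, the log2 difference was 0.83 in place of 1.58 for Ccl22, 2.12 in place of 3.03 for Ccr7 and 2.31 in place of 3.23 for Cd209a. In the paired fit 3 of 23 mature dendritic cell genes rose and 0 fell: Cd40, a costimulatory receptor (log2 3.20, SE 0.69), Il4i1, an amino acid oxidase (log2 3.15, SE 0.61), and Serpinb6b (log2 2.31, SE 0.37). Traf1 (log2 2.26, SE 0.50) and Slamf7 (log2 2.62, SE 0.50) rose of 12 shared genes, Mgl2, a C-type lectin of cDC2 and of alternatively activated macrophages, of 11 cDC2 genes (log2 3.72, SE 0.51), and Il7r of 18 genes of the CCR4 ligand pathway (log2 2.25, SE 0.33). Without the block the calls were Serpinb6b alone of the 23, Slamf7 alone of the 12 and Il7r alone of the 18, and 0 of the 11 cDC2 genes (4 at an unadjusted p under 0.05 in edgeR; DESeq2 2, voom 1). Cd40, Il4i1, Traf1 and Mgl2 were called only with the block. Without the block, the Serpinb6b call was lost without CD11b-low replicate 2 or 3, that of Slamf7 without replicate 2 or 3 of either gate, and that of Il7r without CD11b-high replicate 2 or any 1 CD11b-low library. The sort was seen in Itgam, at 60.2 ± 28.9 CPM in CD11b-high and 4.61 ± 1.58 CPM in CD11b-low cells. Neutrophil markers summed to 411 to 498 against 181 to 256 CPM, eosinophil markers to 321 to 1201 against 125 to 683 CPM, and T and NK cell markers to 33.0 to 97.1 against 47.8 to 126 CPM. Of 6 neutrophil markers tested, S100a9 rose with and without the block and S100a8 only with it. No eosinophil or T and NK cell marker was called in either fit. In each library 1 to 4 of the 5 eosinophil markers were at 0. Of 12 monocyte and interstitial macrophage markers, C1qa, C1qb and Itgam rose and Fcgr1 fell. Without the block and with 1 of 6 libraries left out, Itgam kept the call in all 6 fits, C1qa, C1qb and S100a9 in 4 and Fcgr1 in 1. The part of these markers in the result was not tested.

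CD11b-high knockout cells were also compared with CD11b-low wild-type cells of the same age, with genotype and gate changed together. Ccl17 was 11.3-fold (log2 3.50, SE 0.60, adjusted p = 0.0010), Ccl22 8.54-fold (log2 3.09, SE 0.45, adjusted p = 1.7e-04), Ccr7 17.7-fold (log2 4.15, SE 1.0, adjusted p = 0.0140) and Cd209a 21.2-fold higher (log2 4.41, SE 0.89, adjusted p = 0.0035), each without overlap. Irf4 was 3.31-fold higher (log2 1.73, SE 0.56, adjusted p = 0.0455), with overlap. Clec9a (log2 1.67, adjusted p = 0.0585) and Flt3 (103 against 9 counts, adjusted p = 0.0704) did not overlap but missed the threshold. Called higher were 5 of 10 members, where 9.23% of all genes were, and 6 did not overlap, against 15.6% of all genes. Flt3 is among the 6, and passed the filter only with the CD11b-high libraries.

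The calls of Ccl17, Ccl22 and Cd209a held in 13 of 13 alternatives. That of Ccr7 was lost without CD11b-high replicate 2 (log2 3.24, adjusted p = 0.0561). That of Irf4 was lost without CD11b-high replicate 2 or 3 or wild-type replicate 2 or 3, with an adjusted p from 0.0019 to 0.251 over 13 alternatives. Leaving out wild-type replicate 1 gave 6 calls, with Flt3 added. Batf3 (0.40, 95% interval -0.46 to 1.25), Xcr1 (0.08, interval -1.51 to 1.66) and Zbtb46 (0.57, interval -0.69 to 1.83) gave small log2 differences with wide intervals.

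Of the mature dendritic cell genes, 15 of 23 rose and 0 fell, with a median log2 difference of 2.02 against -0.01 over all genes, of which 9.23% rose and 5.60% fell. The count was 9 of 23 without CD11b-high replicate 2. Named by size were Tnfrsf9, a costimulatory receptor (log2 5.31, SE 0.82), Cd40 (log2 4.71, SE 1.01), Il4i1 (log2 4.68, SE 0.94), Serpinb6b (log2 4.36, SE 0.39), Il12b, a subunit of IL-12 (log2 3.11, SE 0.99), and Cd200 (log2 2.83, SE 0.37). Of these, Il12b lost its call without CD11b-high replicate 2 or 3 or wild-type replicate 1 or 3, and the others stayed called without any 1 library. Cd40 was at 9.64 ± 7.52 against 0.361 ± 0.279 CPM and Cd200 at 216 ± 55.0 against 30.4 ± 18.1 CPM.

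Of 12 shared conventional dendritic cell genes 6 rose and 0 fell, among them Slamf7 (47.1 ± 16.9 against 0.343 ± 0.229 CPM), Traf1 (14.4 ± 9.68 against 0.741 ± 0.468 CPM) and Jaml (5.43 ± 3.99 against 0.469 ± 0.198 CPM). The subset lists were mixed. Of 14 cDC1 genes 4 rose and 1 fell, with Itgae, which T cells also carry (log2 4.23, SE 0.97), Tlr3 (log2 1.24, SE 0.33) and Cd24a (log2 1.23, SE 0.24) higher and Nfil3 lower (log2 -1.42, SE 0.29). Of 11 cDC2 genes 5 rose and 1 fell, with Mgl2 (log2 6.20, SE 1.05), Tnip3 (log2 6.14, SE 0.52) and Notch2 (log2 1.25, SE 0.41) higher and Klf4 lower (log2 -1.23, SE 0.31). Cd4, named after its value was seen because it is also on the T cell list, rose too (3.18 ± 1.75 against 0.0715 ± 0.0975 CPM). Without CD11b-high replicate 2, 2 cDC1 and 2 cDC2 genes rose, as did 2 cDC1 genes without wild-type replicate 1 and 3 cDC2 genes without wild-type replicate 2. Among those named, Itgae was lost without wild-type replicate 1, Tlr3 without CD11b-high or wild-type replicate 2, Notch2 without CD11b-high replicate 2 or 3 or wild-type replicate 1 or 2, Klf4 without CD11b-high replicate 2 or 3 or wild-type replicate 1, and Cd4 without CD11b-high replicate 2 or wild-type replicate 1 or 2. Of 9 plasmacytoid genes 2 rose and 0 fell, and 0 or 1 rose without any 1 library.

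Other genes tied to Ccl17 and Ccl22 rose in part. Of 12 STAT6 target genes 5 rose and 0 fell, among them Retnla (41.5 ± 67.2 against 0.0527 ± 0.0251 CPM), Ccl24 (23.9 ± 36.0 against 0.0559 ± 0.0651 CPM), Arg1 (127 ± 164 against 1.55 ± 0.755 CPM) and Mgl2, which is on both lists. The SDs of these genes in CD11b-high cells exceeded their means. The count was 2 without wild-type replicate 2 or 3, 3 without wild-type replicate 1 or CD11b-high replicate 2, and 2 with voom. Of 18 genes of the CCR4 ligand pathway 3 rose and 1 fell: Il7r (79.8 ± 37.3 against 0.610 ± 0.244 CPM), Jak2 (17.2 ± 7.43 against 7.76 ± 3.11 CPM) and Il2rg (168 ± 56.7 against 88.9 ± 22.7 CPM) were higher and Cx3cl1 lower (1 higher and 0 lower without CD11b-high replicate 2, but 5 higher without wild-type replicate 1 and 6 without CD11b-high replicate 1). Retnla was lost without any 1 wild-type library, Ccl24 without those or CD11b-high replicate 2, Jak2 without replicate 2 or 3 of either group, and Il2rg without CD11b-high replicate 1 or 2 or wild-type replicate 1 or 3. Of 13 genes of the IRF and BATF families and their partners, Irf7 rose (log2 2.23, SE 0.45) and Batf (log2 -1.08, SE 0.21) and Spi1 (log2 -1.03, SE 0.24) fell, the last not without CD11b-high replicate 2. Gpr183, an oxysterol receptor of dendritic cells, rose from 0.498 ± 0.389 to 8.73 ± 6.22 CPM (log2 4.08, SE 0.75). T and NK cell markers were at 33.0 to 97.1 against 3.20 to 7.10 CPM, with 7 higher, and red cell markers at 53.0 to 181 against 571 to 1308 CPM, with 4 lower. Neutrophil markers were at 411 to 498 against 92.9 to 124 CPM (S100a8, S100a9, Cxcr2 and Retnlg higher). Eosinophil markers were at 321 to 1201 against 10.7 to 16.5 CPM, with 1 to 4 of the 5 at 0 in a library (Prg2 and Ear6 higher). Monocyte and interstitial macrophage markers were at 849 to 1123 against 511 to 909 CPM (Ly6c2, C1qa, C1qb, C1qc and Itgam among those higher, Fcgr1 lower). Blk of the B cell markers and Itgax of the alveolar macrophage markers rose, and Sftpc, Epcam, Ear1, Ear2, Fabp1 and Krt79 fell. With 1 of 6 libraries left out, Itgax and Krt79 kept the call in 1 fit, Prg2 and Blk in 2, C1qc and Retnlg in 3 and Sftpc in 4. The part of these markers was not tested.

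The ratio of the chemokine genes varied between groups. Ccl17 had 0.204, 0.187 and 0.0839 counts per Ccl22 count in wild-type and 0.471, 0.182 and 0.186 in knockout libraries at 4 weeks. At 12 weeks it had 0.780, 1.49 and 0.835 in CD11b-low and 0.675, 0.916 and 0.713 in CD11b-high knockout libraries. Wild-type libraries at 12 weeks spread from 2.05 in replicate 1 to 0.474 and 0.209 in the others. In knockout cells the ratio was higher at 12 than at 4 weeks in every library, and the CD11b-low and CD11b-high ranges overlapped.

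**Figure D5:**
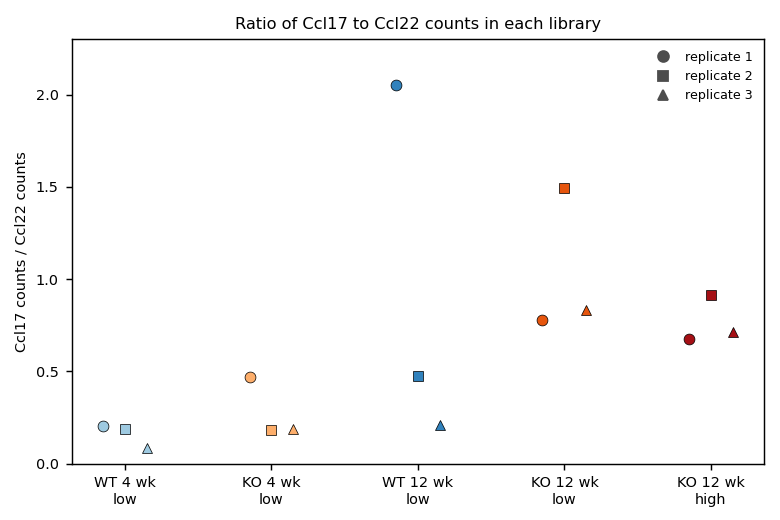
Ccl17 counts per Ccl22 count in each library by group. All 6 knockout libraries at 12 weeks lie above all 6 libraries at 4 weeks, and wild-type libraries at 12 weeks spread from 0.209 to 2.05.

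The neighbouring genes were read as well. Cx3cl1, the fractalkine gene between Ccl22 and Ccl17, was lower in CD11b-high knockout than in wild-type cells (5.13 ± 1.90 against 9.71 ± 0.388 CPM, log2 -0.92, SE 0.26, adjusted p = 0.0273). It was also lower at 12 than at 4 weeks in knockout cells (7.29 ± 1.02 against 14.0 ± 1.41 CPM, log2 -0.94, SE 0.26, adjusted p = 0.0386). The first call was lost without CD11b-high replicate 1 or 2 or wild-type replicate 2, and the second without any 1 library other than replicate 2 at 12 weeks (adjusted p up to 0.157). The flanking genes Ciapin1, Coq9, Polr2c and Dok4 were not called by edgeR in any of the 7 comparisons.

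Across the 15 libraries, Ccl17 and Ccl22 varied together on the log2 CPM scale (Pearson r = 0.842). Ccl17 was closest to Cd209a among the members (r = 0.917), and Ccl22 to Ccr7 (r = 0.853). Batf3 stood apart in these values over all libraries, with r from 0.0841 (Ccl17) to 0.486 (Zbtb46). Among 8549 genes with at least 5 CPM in a group, the 5 most like Ccl17 were Ccl5 (0.957), Tnfrsf4 (0.948), Pf4 (0.948), Cxcl16 (0.940) and Igf1 (0.938). The 5 most like Ccl22 were Il20rb (0.978), Spp1 (0.976), Mmp12 (0.952), Sdc4 (0.949) and Fam198b (0.946). The points share their 5 groups and library scaling, so these values describe the order of the groups as much as the libraries within them. After group means were removed, r with Ccl17 was 0.813 for Ccl5, 0.685 for Tnfrsf4, 0.433 for Pf4, 0.507 for Cxcl16 and 0.558 for Igf1. It was 0.890 for Il20rb, 0.881 for Spp1, 0.621 for Mmp12, 0.719 for Sdc4 and 0.672 for Fam198b with Ccl22. Among the members, r within groups was 0.195 for Ccl17 with Ccl22 and 0.601 for Ccl17 with Cd209a. For Batf3, r within groups ran from 0.0778 (Clec9a) to 0.563 (Cd209a) and 0.581 (Ccr7).

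Spp1, the osteopontin gene, was among those most like Ccl22. It was at 1066 ± 116 CPM in wild-type and 1117 ± 78.4 CPM in knockout cells at 4 weeks, 1174 ± 388 CPM in wild-type cells at 12 weeks, and 2127 ± 742 and 5300.2 ± 1330.3 CPM in CD11b-low and CD11b-high knockout cells. Ccl5, most like Ccl17, was at 1.03 ± 0.389, 1.26 ± 0.140, 6.08 ± 2.41, 13.4 ± 4.77 and 23.1 ± 14.6 CPM in the same order of groups.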

How the data were processed

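RNA sequencing libraries were made with Clontech SMARTer kits, per the series' design text. The authors deposited raw counts per gene, 1 column per library. The submitters' processing notes name STAR, Subread and featureCounts, with no versions. The genome build, annotation and strand setting are not given in the sources used here. Flt3, Zbtb46 and Clec9a overlap other genes in GENCODE M21, so their counts are uncertain. Of 40780 entries, 270 repeats were removed, leaving 40510 genes.

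The test was that of edgeR 4.0.16 (R 4.3.3): filterByExpr (minimum count 10, total 15), TMM scaling, and a robust quasi-likelihood fit with 1 coefficient per group over 15 libraries, leaving 10 residual degrees of freedom. Replicates are called independent in the design text, and each is a pool of mice. Alternatives were no filter, at least 1 CPM in 3 libraries, RLE scaling, DESeq2 1.42.0, voom with library weights in limma 3.58.1, only the groups compared, a replicate block, and leaving out each library.

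Replicate numbers come from the sample titles. Deviations from group means of same-numbered CD11b-high and CD11b-low knockout libraries correlated at 0.609, 0.507 and 0.137 (replicates 1, 2 and 3), all above a cutoff of 0.1. The fit with the block for these 2 groups was an alternative to the fit without it. Libraries of different numbers correlated at -0.527 to 0.171, and the pair of replicate 3 was below CD11b-low 3 with CD11b-high 2 (0.171) and CD11b-low 2 with CD11b-high 3 (0.145). In the other comparisons at least 1 pair fell below 0.1. Same-numbered CD11b-low knockout and wild-type libraries at 12 weeks, which come from different mice, correlated at 0.499, 0.0382 and 0.368. The cutoff therefore does not show that same-numbered libraries share a pool of mice.

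The 10 members and the lists of related genes and cell markers were chosen with earlier results of these data known. From each list, up to 6 called genes with the largest change and at least 5 CPM in the higher group were named, or the 2 most abundant where none passed, and the 5 genes most like Ccl17 and Ccl22. Listed symbols were matched by name, and shared genes count in each list. Exon lengths and coordinates are from GENCODE M21 on GRCm38, which may not be the build of the counts. Promoter sequences are from RefSeq, 250 bases before the start. That of Ccl22 was kept only before its first GENCODE start.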

Additional observations from a re-analysis of the deposited data

How the results depend on the processing

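The 28 member changes recomputed under the alternatives were those with an unadjusted p under 0.05 in the edgeR test described above. None reversed, which this choice made likely in advance. Between genotypes at 12 weeks 1 member was called, and 3 with no filter on low counts, 0 with at least 1 CPM in 3 libraries, 2 with DESeq2, 0 with voom and 2 with the replicate block. For CD11b-high against CD11b-low knockout cells the count of 0 became 4 with no filter, 1 with DESeq2, 1 with voom and 2 with the replicate block. With age in knockout cells 3 became 7 with no filter, 6 with DESeq2 and 6 with voom, and in wild-type cells 2 became 0 with voom and 1 with only the groups compared. The interaction gave 1 (Flt3) in place of 0 with no filter. Leaving out 1 library at a time gave 0 to 0 calls at 12 weeks and 0 to 0 at 4 weeks between genotypes, 0 to 2 for CD11b-high against CD11b-low cells, 3 to 6 between CD11b-high knockout and wild-type, 1 to 3 with age in knockout, 0 to 2 with age in wild-type cells, and 0 to 0 in the interaction. Of the list genes and cell markers called, 15 of 27 stayed called without each single library for genotype at 12 weeks, 2 of 5 at 4 weeks, 1 of 8 for CD11b-high against CD11b-low cells, 44 of 77 for CD11b-high knockout against wild-type, 22 of 43 with age in knockout, 13 of 38 with age in wild-type cells, and 0 of 5 in the interaction. The causes were not tested.

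In the remaining comparisons the replicate block left the counts at 0 for genotype at 4 weeks, 3 and 2 for age and 0 for the interaction. It gave 6 in place of 5 between CD11b-high knockout and wild-type. Over all genes, DESeq2 called 864 and no filter 1090 in place of 412 for genotype at 12 weeks, and 274 and 533 in place of 92 for CD11b-high against CD11b-low cells. With age in knockout cells, no filter called 1395, DESeq2 1679 and voom 2640 in place of 915. With age in wild-type cells, voom called 3968 and the fit of only the groups compared 1123 in place of 2282. For the interaction, no filter called 321 in place of 33. Depth limits Flt3 and Cd209a most, with 0 to 19 counts a library at 4 weeks.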
